A study of Mus musculus with 6 samples.

Results

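The comparison of 8-week with 3-week mitral valves covered 4 of the 6 single-cell libraries of the series, 1 of each genotype (K/B.g7, B.g7) at 3 and at 8 weeks of age, with the genotype kept as a block. Fibroblasts and endothelium were taken by marker genes and analysed apart. A barcode was used when it had at least 300 genes and at most 10% of its unique molecular identifiers (UMIs, the counted RNA molecules) from mitochondrial genes, which held for 24590 of 26673 barcodes here and 53526 of 58351 in the whole series. Fibroblasts had at least 1% of their UMIs from Dcn, Col1a1 and Col1a2 and none from Pecam1 or Ptprc. There were 15304 of them. Endothelium had at least 3 UMIs over Pecam1, Cdh5, Emcn and Egfl7, none from Ptprc and less than 1% from the 3 matrix genes. There were 2262 such cells.

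K/B.g7 mice carry the KRN T cell receptor transgene, which is active in T cells, together with the MHC class II molecule I-Ag7. They develop antibody-driven arthritis and inflammation of the heart valves, and the titles name them the inflamed mice. B.g7 mice share I-Ag7, lack the transgene and are named the controls. Live cells were sorted from the digested tissue (collagenase 2 with DNase) after lysis of red cells. The labels do not give the number or sex of the mice in a library or the time of day of the dissection.

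A mitral valve leaflet is a thin sheet of collagen, elastic fibres and proteoglycans, which interstitial fibroblasts make and a single layer of endothelium covers. In the weeks around weaning the leaflets grow and lay down matrix, and growth then slows. MHC class I presents peptides from inside the cell on nearly all cells, while MHC class II is the property of professional antigen-presenting cells and appears on fibroblasts and endothelium under interferon-gamma.

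The 3-week libraries held 3866 (K/B.g7) and 2762 (B.g7) fibroblasts and the 8-week libraries 5768 and 2908. Their summed counts were 17609735, 9743711, 27241257 and 13693402 UMIs in that order, and their median depth was 3397 to 4744.5 UMIs per cell. Levels are compared within a gene only, on the scale of the class sums. The libraries shared 6 to 17 barcodes in any pair. A stricter limit of 2% matrix-gene UMIs, with no endothelial UMI, held for 1924 and 1290 of the fibroblasts at 3 weeks and for 1801 and 1004 at 8 weeks, so a larger share lay close to the limit at 8 weeks. All 12 fibroblast markers were detected and summed to 52092 to 65274 CPM (counts-per-million, the UMIs of a gene scaled to the UMIs of the class sum), against 104 to 127 CPM for the 11 endothelial markers, of which Pecam1 was at 0 by the rule. Fibroblasts with Xist and without Ddx3y UMIs, a sign of female cells, made up 50.8% and 33.3% at 3 weeks in K/B.g7 and B.g7 and 51.2% and 86.8% at 8 weeks. The share of barcodes with Ptprc, the gene of the leukocyte antigen CD45, was 1.34% (K/B.g7) and 1.14% (B.g7) in the libraries of 3 weeks and 7.72% and 4.38% at 8 weeks. Red cell markers summed to 330.3 and 497 CPM of the fibroblast sums at 3 weeks and to 2082 and 42.9 CPM at 8 weeks.

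In fibroblasts, genes of the extracellular matrix and of cell division fell between 3 and 8 weeks, and genes of antigen presentation, the interferon response and complement rose. Genes of the circadian clock changed in both directions. Of 13371 genes tested, 653 (4.88%) rose and 442 (3.31%) fell, 1095 in all (8.19%), at an adjusted p under 0.05 in edgeR's quasi-likelihood test. Of these, 1092 had the same sign in both genotypes. The test itself favours such agreement, because it takes its error in part from the disagreement between the genotypes. The shared sign is therefore no separate support. The median log2 change of all genes tested was 0.016. Log2 changes of genes are given ± their standard error (SE), with adjusted p-values from this test over 2 libraries per age. With 1 library per genotype and age the test has 1 residual degree of freedom, so its p-values reflect no more than how far these libraries differ from each other. In a fit of all 6 libraries that left out the K/B.g7 library of 3 weeks no gene passed, in edgeR as above, with 1877 genes at an unadjusted p under 0.05, and all 1095 genes kept their direction. That applies to every gene and list called below. Without the B.g7 library of 3 weeks 466 genes passed, of which 43.6% had risen, against 59.6% in the comparison itself. In cells with Xist and without Ddx3y UMIs 1967 genes passed.

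**Figure D1:**
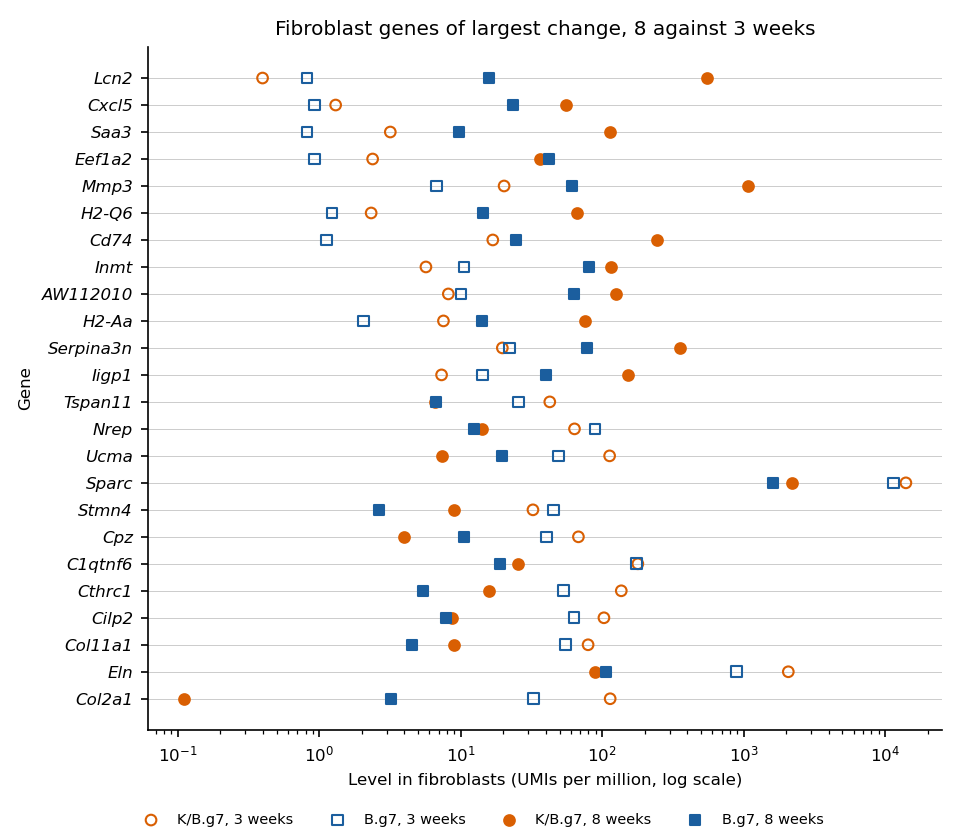
Levels of 24 fibroblast genes that passed the test (vertical axis), in CPM on a log scale (horizontal axis). They are the genes of largest change with a mean of at least 20 CPM and the same sign in both genotypes. The classes of genes left out of naming are left out here too. Each point is 1 library, and 12 genes rose and 12 fell. For Lcn2 the 3-week points lie below 1 CPM and the 8-week points at 15.9 and 548 CPM.

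Structural matrix genes fell together. Of 23 collagen genes tested, 16 fell and none rose, with a median log2 change of -1.19. In both genotypes 20 were lower and 2 higher at 8 weeks. Over all 13371 genes 67.2% had the same sign, up or down, in both genotypes. Col1a1 and Col1a2 belong to the definition of the cells and were left out. Among genes that fold, modify and crosslink collagen, 12 of 26 fell and none rose (median -0.83), and among those of elastic fibres and microfibrils 6 of 18 fell and 1 rose (median -0.36). Without a B.g7 library, that of 3 or that of 8 weeks, 9 of 24 collagen genes fell in each case, and 1 and 2 of the 26 genes of collagen maturation. Of those 26, 6 fell without the K/B.g7 library of 8 weeks, and 10 of 23 collagen genes fell without the block.

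Eln (ENSMUSG00000029675, chr5:134702593-134747323, minus strand, mm10) encodes tropoelastin, the core of the elastic fibre. It stood at 2071 CPM in K/B.g7 and 889.7 CPM in B.g7 at 3 weeks against 88.8 and 106 CPM at 8 weeks. Both 8-week libraries lay far below both 3-week libraries, with a log2 change of -3.74 ± 0.41 (SE, adjusted p = 0.00376). Fbn2, a fibrillin of immature microfibrils, was at 25.8 and 33.1 CPM at 3 weeks and 2.94 and 3.36 CPM at 8 weeks in K/B.g7 and B.g7, so the ages did not overlap (log2 change -3.15 ± 0.21, adjusted p = 0.000763). Mfap4, a microfibril-associated protein, went from 2982 to 632 CPM in K/B.g7 and from 1829.6 to 584 CPM in B.g7 (log2 change -1.88 ± 0.28, adjusted p = 0.0105). The exception in the list was Efemp1, which encodes fibulin-3. Its level rose from 33.2 to 144 CPM in K/B.g7 and from 35.1 to 181 CPM in B.g7, with a log2 change of 2.30 ± 0.20 (SE, adjusted p = 0.00155).

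Sparc (ENSMUSG00000018593, chr11:55394500-55423183, minus strand), a collagen-binding glycoprotein needed for the deposition of fibrillar collagen, was among the most changed of the highly expressed genes. Its level was 14042 CPM in K/B.g7 and 11447 CPM in B.g7 at 3 weeks against 2183 and 1622 CPM at 8 weeks. The lower of the 3-week values was over the higher of the 8-week values by a wide margin, and the test gave a log2 change of -2.69 ± 0.35 (SE, adjusted p = 0.00664). Lox, a lysyl oxidase that crosslinks collagen and elastin, was at 142 and 42.5 CPM at 3 weeks and 47.3 and 11.7 CPM at 8 weeks in K/B.g7 and B.g7. Here the B.g7 value at 3 weeks lay below the K/B.g7 value at 8 weeks, but the level was lower at 8 weeks in each genotype (log2 change -1.66 ± 0.18, adjusted p = 0.00365). Cthrc1, a secreted protein of matrix-producing fibroblasts, went from 137 to 15.8 CPM in K/B.g7 and from 53.3 to 5.404 CPM in B.g7 (log2 change -3.14 ± 0.19, adjusted p = 0.000523).

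The fibrillar collagens that fell included the regulatory chains of thin fibrils. Col11a1 was at 79.6 CPM in K/B.g7 and 55.2 CPM in B.g7 at 3 weeks against 9.03 and 4.53 CPM at 8 weeks, without overlap between the ages (log2 change -3.30 ± 0.20, adjusted p = 0.000523). Col5a2 went from 691 to 249 CPM in K/B.g7 and from 570.1 to 177 CPM in B.g7 (log2 change -1.52 ± 0.20, adjusted p = 0.00652). Col2a1, the collagen of cartilage, fell to near 0, from 114 to 0.11 CPM in K/B.g7 and from 32.6 to 3.21 CPM in B.g7 (log2 change -5.70 ± 1.27, adjusted p = 0.0376). Some other cartilage genes moved with it. In the chondrogenic and osteogenic list 8 of 22 genes fell and 1 rose, among them Acan, the large aggregating proteoglycan (from 20.1 to 0.918 CPM in K/B.g7 and from 6.88 to 0.876 CPM in B.g7, log2 change -3.81 ± 0.41, adjusted p = 0.00365), and Chad, a leucine-rich matrix protein of cartilage (from 139 to 42.1 CPM in K/B.g7 and from 73.2 to 17.3 CPM in B.g7, log2 change -1.84 ± 0.18, adjusted p = 0.0025). Bmp4 was the member that rose (log2 change 0.88 ± 0.18, adjusted p = 0.0284). In both genotypes 11 of the 22 were lower and 7 higher at 8 weeks. The summed level of the list did not fall. It went from 9941 to 11671 CPM in K/B.g7 and from 9733 to 12801 CPM in B.g7. With each cell thinned to 1000 UMIs 4 of 19 genes of this list fell, and the list median turned from -0.51 to 0.16. Without the block 2 of 22 fell.

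The fall did not reach all matrix genes. Of 21 proteoglycan and hyaluronan genes 5 fell, with a list median of -0.13. Lum, the keratan sulfate proteoglycan lumican, was at 3122 and 3221 CPM at 3 weeks and 2676 and 2452 CPM at 8 weeks in K/B.g7 and B.g7, and its difference did not pass (log2 change -0.25 ± 0.27, adjusted p = 0.612). Ogn, the related mimecan, was at 535 and 638 CPM at 3 weeks and 919 and 771 CPM at 8 weeks in K/B.g7 and B.g7 and did not pass either (log2 change 0.59 ± 0.22, adjusted p = 0.148). Of 25 other matrix proteins 7 fell, including Fn1, Tnc and Thbs4. Thbs4, a thrombospondin of tendon and muscle, went from 159 to 67.8 CPM in K/B.g7 and from 226 to 36.6 CPM in B.g7 (log2 change -1.86 ± 0.30, adjusted p = 0.013). Of 21 matrix proteases and inhibitors 5 fell, 4 of them ADAMTS enzymes, and 1 rose. That one was Mmp3, stromelysin-1, at 20.3 CPM in K/B.g7 and 6.77 CPM in B.g7 at 3 weeks against 1072 and 60.9 CPM at 8 weeks (log2 change 4.58 ± 0.56, adjusted p = 0.00526). Without the block 1 of the 21 proteoglycan and hyaluronan genes fell and 2 of the 25 other matrix proteins. The proteoglycan and hyaluronan median was -0.22 without the K/B.g7 library of 8 weeks. Among the proteases and inhibitors 2 of 22 fell and 1 rose without the B.g7 library of 3 weeks, and 2 fell and 4 rose without that of 8 weeks.

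Some genes of the contractile myofibroblast and of tendon also fell. Acta2, smooth muscle actin, was at 356 CPM in K/B.g7 and 129 CPM in B.g7 at 3 weeks against 88.8 and 32.1 CPM at 8 weeks. Both genotypes were lower at 8 weeks, though the B.g7 value at 3 weeks lay close to the K/B.g7 value at 8 weeks (log2 change -1.95 ± 0.18, adjusted p = 0.00213). Tagln, an actin-binding protein, went from 396 to 81.3 CPM in K/B.g7 and from 163 to 56.7 CPM in B.g7 (log2 change -1.85 ± 0.25, adjusted p = 0.00794). Within the same list of 20 genes 5 fell and none rose. Of these, 2 fell and 1 rose without the K/B.g7 library of 8 weeks, without the B.g7 library of 3 weeks 3 fell, and without the block 1 did. Markers of mural and smooth muscle cells, which share Acta2 and Tagln, summed to 931 and 448 CPM at 3 weeks and 346 and 318 CPM at 8 weeks in the fibroblast sums. All 10 of these markers were detected, 3 of 10 fell, and their part in the result was not tested. Scx, the tendon transcription factor scleraxis, went from 148 to 31.8 CPM in K/B.g7 and from 79.1 to 30.01 CPM in B.g7 (log2 change -1.75 ± 0.26, adjusted p = 0.00996).

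With the stricter limit of matrix-gene UMIs, 14 of 23 collagen genes fell with a median of -1.38. That limit itself selects cells on Col1a1 and Col1a2, so the part of cells near the limit in the fall was not tested. Among cells thinned to 1000 UMIs each, Sparc had a UMI in 99.3% (98.99 to 99.5) of K/B.g7 fibroblasts and 98.8% (98.3 to 99.2) of B.g7 fibroblasts at 3 weeks and in 76.6% (75.5 to 77.8) and 66.3% (64.4 to 68.2) at 8 weeks, each with its exact binomial 95% interval, which covers counting error only. Eln had one in 40.7% (39.2 to 42.3) and 34.3% (32.5 to 36.2) at 3 weeks and 8.09% (7.39 to 8.85) and 8.82% (7.75 to 9.99) at 8 weeks. Without thinning the Sparc shares were 99.7%, 99.5%, 94.4% and 95.4% and the Eln shares 61.6%, 56.99%, 24.5% and 26.6%. In barcodes with Ptprc, whose median depth was 2080 to 4498 UMIs, the thinned share was at most 1.54% for Eln and 21.03% for Sparc. The thinning left out 92 and 82 shallower fibroblasts at 3 weeks and 258 and 369 at 8 weeks.

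Genes of cell division fell as well. Of 30 proliferation genes tested 22 fell and none rose, and the median log2 change was -2.71, with ratios of -3.22 within K/B.g7 and -1.68 within B.g7. Mki67, the proliferation marker Ki-67, was at 9.54 CPM in K/B.g7 and 8.21 CPM in B.g7 at 3 weeks against 0.22 and 0.876 CPM at 8 weeks. Both 8-week values were below 1 CPM, without overlap (log2 change -4.18 ± 0.36, adjusted p = 0.00155). Cdk1, the kinase that drives entry into mitosis, went from 14.7 to 0.33 CPM in K/B.g7 and from 6.36 to 1.46 CPM in B.g7 (log2 change -3.67 ± 0.71, adjusted p = 0.0246). Birc5, survivin, a subunit of the chromosomal passenger complex, went from 20.7 to 1.21 CPM in K/B.g7 and from 12.01 to 1.24 CPM in B.g7 (log2 change -3.68 ± 0.32, adjusted p = 0.00155). Top2a, which untangles replicated DNA, and Ube2c, a ubiquitin-conjugating enzyme of the anaphase-promoting complex, fell by 3.71 and 4.09 on the log2 scale. In fibroblasts thinned to 1000 UMIs 9 of 22 proliferation genes that could be tested fell and 1 rose (Pcna, the sliding clamp of DNA replication), with a median of -1.62, and without the block 13 of 30 fell.

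The promoters of 3 of these genes are shown because many cell cycle promoters carry the CCAAT box, which the factor NF-Y reads, and the cell cycle homology element TTTGAA. Each stretch is the 100 bases before the annotated start from RefSeq on GRCm38.p6, all 3 on the minus strand, written 5′ to 3′ with CCAAT (or its reverse complement ATTGG) and TTTGAA in capitals.
Cdk1 promoter, chr10:69352913-69353012: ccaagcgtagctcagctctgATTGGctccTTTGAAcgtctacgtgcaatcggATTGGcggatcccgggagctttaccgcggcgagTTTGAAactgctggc
Cdc20 promoter, chr4:118437344-118437443: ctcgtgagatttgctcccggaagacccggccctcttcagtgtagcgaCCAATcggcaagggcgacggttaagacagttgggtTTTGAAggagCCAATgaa
Ccnb2 promoter, chr9:70421555-70421654: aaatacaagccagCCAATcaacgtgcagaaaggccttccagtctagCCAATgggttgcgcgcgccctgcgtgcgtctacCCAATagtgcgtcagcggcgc
Cdk1 and Cdc20 hold both motifs in this stretch, and Ccnb2, the gene of cyclin B2, holds CCAAT alone. Over windows of 300 bases around the start (250 before, 50 after), searched on both strands, CCAAT was found in 21 of the 26 proliferation genes matched (80.8%) and in 41.1% of 27025 genes of the RefSeq table. TTTGAA was found in 13 of 26 (50%) against 20.2%. In the collagen list CCAAT was found in 6 of 19 members matched (31.6%). High shares were not particular to the proliferation list, since CCAAT was found in 12 of 16 MHC class I genes (75%) and 4 of 5 class II genes (80%).

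Growth-factor genes changed in both directions. Igf1, insulin-like growth factor 1, fell from 1009 to 313 CPM in K/B.g7 and from 759 to 345 CPM in B.g7 (log2 change -1.35 ± 0.24, adjusted p = 0.0188), while Ghr, the growth hormone receptor that induces it in liver, rose from 80.3 to 152 CPM in K/B.g7 and from 73.3 to 120.3 CPM in B.g7 (log2 change 0.88 ± 0.17, adjusted p = 0.0257). In the list of the insulin-like growth factor axis 3 of 14 genes rose and 2 fell. This changed with 1 library left out. Without that of B.g7 at 3 weeks 0 of 15 rose and 1 fell, without that of 8 weeks 1 of 16 rose and 2 fell, and without the K/B.g7 library of 8 weeks 1 of 15 rose and 1 fell. Among imprinted genes of early growth 5 of 19 fell (Nnat, Mest, Plagl1, Grb10 and Dlk1) and 1, Impact, rose. Of 20 tested without the B.g7 library of 3 weeks 3 fell and none rose. Dlk1, a Delta-like inhibitor of adipocyte differentiation, was at 6.53 and 5.54 CPM at 3 weeks and 0.11 and 0.365 CPM at 8 weeks in K/B.g7 and B.g7, which leaves both 8-week libraries below 1 CPM (log2 change -4.81 ± 0.53, adjusted p = 0.00376). Mest, a hydrolase of mesoderm, went from 27.1 to 8.92 CPM in K/B.g7 and from 31.7 to 8.11 CPM in B.g7 (log2 change -1.72 ± 0.20, adjusted p = 0.00439). The retinol-binding protein gene Rbp4 fell from 466 to 70.9 CPM in K/B.g7 and from 199 to 76.2 CPM in B.g7 (log2 change -1.99 ± 0.34, adjusted p = 0.0163).

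Among genes with a mean of at least 20 CPM over the 4 libraries, the largest fitted rise was that of Lcn2 (ENSMUSG00000026822, chr2:32384633-32388252, minus strand), which encodes lipocalin-2, an acute-phase protein that binds bacterial siderophores. It was at 0.398 CPM in K/B.g7 and 0.821 CPM in B.g7 at 3 weeks against 548 and 15.9 CPM at 8 weeks. The 8-week value was far higher in K/B.g7 than in B.g7, and both exceeded both 3-week values (log2 change 8.36 ± 1.46, adjusted p = 0.0131). Cells with a Lcn2 UMI after thinning to 1000 UMIs made up 0.0265% (0.000671 to 0.148) and 0.0746% (0.00904 to 0.269) at 3 weeks and 6.35% (5.72 to 7.03) and 0.394% (0.189 to 0.723) at 8 weeks in K/B.g7 and B.g7. Without thinning the 8-week shares were 13.6% and 0.928%. The same share in barcodes with Ptprc was 3.38% and 2.42% at 8 weeks, above the fibroblast share in B.g7. Such barcodes give no measure of background in fibroblasts, and the part of immune RNA in the B.g7 share was not tested. Saa3, a serum amyloid A protein, went from 3.18 to 114 CPM in K/B.g7 and from 0.821 to 9.79 CPM in B.g7 (log2 change 4.69 ± 0.25, adjusted p = 0.00033). Cxcl5, a neutrophil-attracting chemokine, went from 1.31 to 55.9 CPM in K/B.g7 and from 0.924 to 23.6 CPM in B.g7 (log2 change 5.16 ± 0.26, adjusted p = 0.000272). Inmt, an indolethylamine methyltransferase, and Eef1a2, a translation elongation factor of muscle and nerve, also rose, Inmt from 5.68 to 116 CPM in K/B.g7 and from 10.6 to 80.5 CPM in B.g7 and Eef1a2 from 2.39 to 36.6 CPM in K/B.g7 and from 0.924 to 41.9 CPM in B.g7.

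Genes of MHC class I presentation rose almost as a whole. Of 18 tested 16 rose and none fell, with a median log2 change of 1.88, with ratios of 2.31 within K/B.g7 and 1.33 within B.g7. H2-K1 (ENSMUSG00000061232, chr17:33996017-34000347, minus strand), a classical heavy chain, was at 219 CPM in K/B.g7 and 238 CPM in B.g7 at 3 weeks against 1269.95 and 598 CPM at 8 weeks. Both 8-week libraries were higher than both 3-week libraries, K/B.g7 by more (log2 change 1.99 ± 0.29, adjusted p = 0.00983). B2m, the common light chain, went from 300.1 to 1348 CPM in K/B.g7 and from 305 to 749.8 CPM in B.g7 (log2 change 1.79 ± 0.25, adjusted p = 0.00861), and H2-D1, the other classical heavy chain of this list, from 303 to 1717 CPM in K/B.g7 and from 281 to 965 CPM in B.g7 (log2 change 2.20 ± 0.25, adjusted p = 0.004). Psmb9, a subunit of the immunoproteasome that cuts the peptides, went from 9.31 to 78.9 CPM in K/B.g7 and from 8.62 to 40.9 CPM in B.g7 (log2 change 2.73 ± 0.23, adjusted p = 0.00155). Nlrc5, the transactivator of MHC class I genes, rose from 0.0568 and 0.205 CPM to 6.57 and 1.31 CPM. H2-Q6 rose too (log2 change 4.38 ± 0.32, adjusted p = 0.00102), but it is near-identical to H2-Q7, and reads could be split between them in counting. Without the K/B.g7 library of 8 weeks 10 of the 18 genes passed, and without the B.g7 library of 3 weeks 5 did. With cells thinned to 1000 UMIs, H2-D1 had a UMI in 25.5% (24.1 to 26.9) and 22.9% (21.3 to 24.5) of fibroblasts at 3 weeks and 68.98% (67.7 to 70.2) and 54.4% (52.4 to 56.3) at 8 weeks. Without thinning these were 64.3%, 55.9%, 94.04% and 82.98%, and in barcodes with Ptprc, which express the gene, the thinned shares were 73.7% to 91.5%.

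Interferon-response genes followed the same course. In the interferon-gamma list 12 of 20 genes rose and none fell (median 1.97), and in the type I list 15 of 19 rose and none fell (median 1.49). The rise was larger in K/B.g7, a difference that was not tested. The median ratios within K/B.g7 and B.g7 were 2.75 and 1.01 for interferon-gamma genes and 2.19 and 1.11 for type I genes. Gbp2, a guanylate-binding protein, was at 16.9 CPM in K/B.g7 and 17.7 CPM in B.g7 at 3 weeks against 87.3 and 43.3 CPM at 8 weeks. The 8-week values did not overlap the 3-week values (log2 change 1.90 ± 0.25, adjusted p = 0.0072). Igtp, a GTPase of the immunity-related family, went from 4.66 to 36.4 CPM in K/B.g7 and from 6.57 to 12.05 CPM in B.g7 (log2 change 2.02 ± 0.43, adjusted p = 0.0324), and Iigp1, of the same family, from 7.33 to 151 CPM in K/B.g7 and from 14.3 to 40.02 CPM in B.g7 (log2 change 3.00 ± 0.59, adjusted p = 0.0257). Gbp4 had no UMI in either 3-week library and 496 and 67 at 8 weeks, at least 125-fold higher against a floor of 3 UMIs over both 3-week libraries. Isg15, a ubiquitin-like protein, went from 7.098 to 43.5 CPM in K/B.g7 and from 5.13 to 26.1 CPM in B.g7 (log2 change 2.54 ± 0.20, adjusted p = 0.00127). Cd274, the gene of PD-L1, rose from 0.227 to 7.34 CPM in K/B.g7 and from 0.308 to 3.07 CPM in B.g7 (log2 change 4.39 ± 0.50, adjusted p = 0.00376). Cxcl10 was at 42.3 and 56.7 CPM at 3 weeks and 139.8 and 39.4 CPM at 8 weeks in K/B.g7 and B.g7 and did not pass (log2 change 0.67 ± 0.44, adjusted p = 0.399), with a higher level at 8 weeks in K/B.g7 and a lower one in B.g7. Without the K/B.g7 library of 8 weeks 9 of 20 interferon-gamma genes passed and 7 of 20 type I genes, and without the B.g7 library of 3 weeks 7 of 21 and 10 of 21.

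2 interferon-response promoters and 1 of MHC class II are shown, again the 100 bases before the start on GRCm38.p6 from RefSeq, because their genes rose together. Capitals mark the core of the interferon-stimulated response element (ISRE core, GAAA repeated after a gap of 2 bases), TTCNNNGAA, the gamma-activated site, and CCAAT, each on either strand.
Igtp promoter, chr11:58199456-58199555: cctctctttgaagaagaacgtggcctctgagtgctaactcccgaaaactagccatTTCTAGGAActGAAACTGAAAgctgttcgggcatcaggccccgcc
Gbp2 promoter, chr3:142620563-142620662: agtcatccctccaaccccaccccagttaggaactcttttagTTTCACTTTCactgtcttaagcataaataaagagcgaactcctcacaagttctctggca
H2-Aa promoter, chr17:34287824-34287923: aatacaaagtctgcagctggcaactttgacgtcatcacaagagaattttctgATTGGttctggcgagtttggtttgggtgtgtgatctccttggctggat
Igtp lies on the plus strand and holds TTCNNNGAA followed closely by the ISRE core, Gbp2 (plus strand) holds the reverse complement of the ISRE core, and H2-Aa (minus strand) holds the reverse complement of CCAAT. In windows of 300 bases the ISRE core was found in 11 of 16 matched interferon-gamma genes (68.8%), 10 of 17 type I genes (58.8%) and 3.99% of all 27025 genes. TTCNNNGAA was found in 8 of the 16 interferon-gamma genes and in 9.55% of all genes. None of the 19 collagen genes matched held the ISRE core. A motif match describes the letters and is no evidence that a factor was bound.

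**Figure D2:**
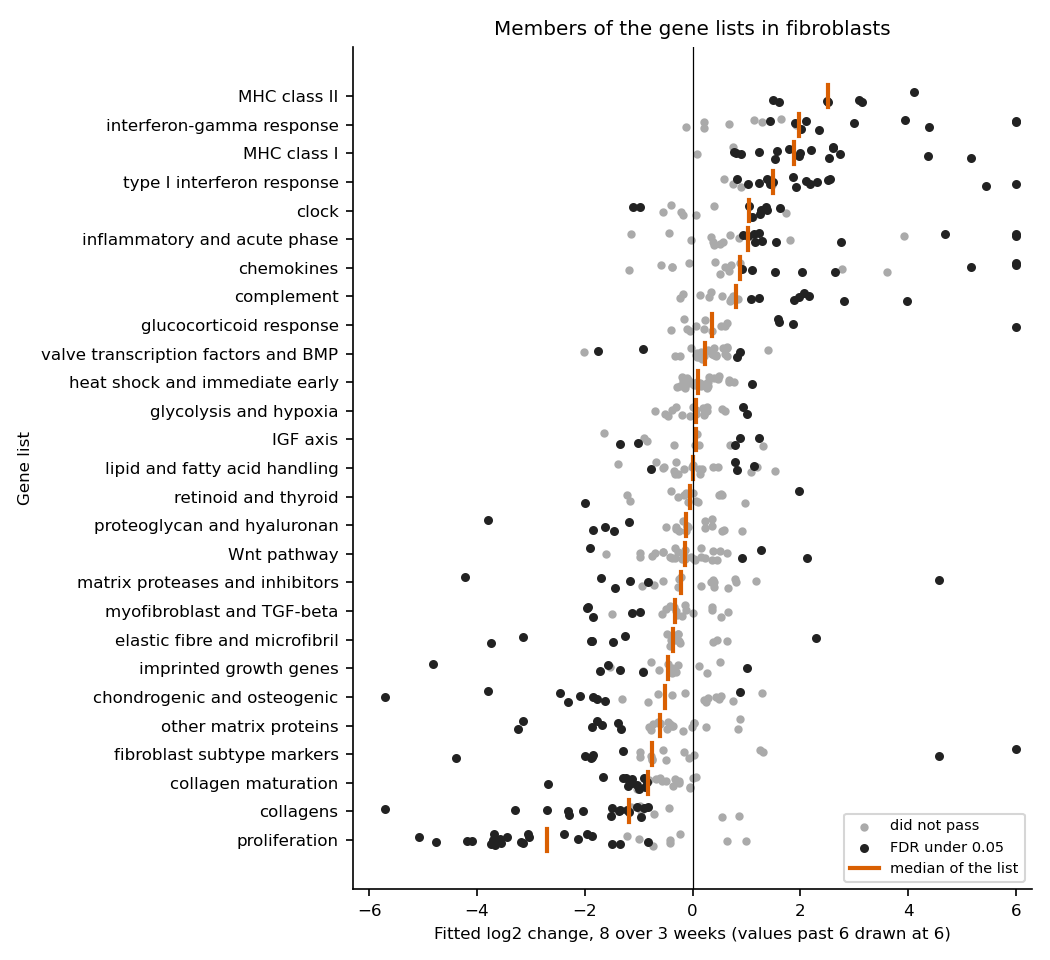
Fitted log2 change, 8 over 3 weeks (horizontal axis), of tested members of the gene lists in fibroblasts (vertical axis). Dark points are genes that passed, and a bar marks the median of each list. Gbp4 and Tgtp2, which rose and had no UMI at 3 weeks, are not drawn but count in the median. Values beyond the limit of the axis are drawn at the limit. The proliferation and collagen lists have medians of -2.71 and -1.19, the MHC class I and class II lists 1.88 and 2.51.

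All 7 tested MHC class II genes rose in fibroblasts, with a median log2 change of 2.51 and ratios of 2.88 within K/B.g7 and 1.93 within B.g7. Cd74, the invariant chain that escorts class II molecules, was at 16.9 CPM in K/B.g7 and 1.13 CPM in B.g7 at 3 weeks against 246 and 24.6 CPM at 8 weeks. The B.g7 value at 8 weeks was only a little above the K/B.g7 value at 3 weeks, and both genotypes were higher at 8 weeks (log2 change 4.11 ± 0.25, adjusted p = 0.000523). H2-Aa (ENSMUSG00000036594, chr17:34282744-34287823, minus strand), a class II alpha chain, went from 7.55 to 75.5 CPM in K/B.g7 and from 2.05 to 14.1 CPM in B.g7 (log2 change 3.14 ± 0.22, adjusted p = 0.000939), and H2-Ab1, its beta chain, from 15.3 to 113 CPM in K/B.g7 and from 5.23 to 20.2 CPM in B.g7 (log2 change 2.51 ± 0.24, adjusted p = 0.00241).

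Immune cells carry far more class II RNA, and barcodes with Ptprc were more common at 8 weeks. The fibroblast level of Cd74 was 0.153% and 0.0103% of the level in barcodes with Ptprc at 3 weeks and 2.36% and 0.284% at 8 weeks. For Igkc, an immunoglobulin gene that fibroblasts do not transcribe, the shares were 0.0141% and 0.0247% at 3 weeks and 2.22% and 0.266% at 8 weeks. For Lyz2, a macrophage gene, they were 0.0713% and 0.12%, then 0.519% and 0.0821%. The B cell gene Cd79a was at 0.0772% and 0.43%, then 1.25% and 1.88%, above Cd74 in B.g7 at both ages. C1qa was at 0.0458% and 0.252%, then 0.562% and 0.172%, and Tyrobp at 0.0233% and 0.0995%, then 0.551% and 0.122%. The T cell gene Cd3e went from 3.35% to 2.12% in K/B.g7 and was at 0.77% in B.g7 at 8 weeks. The 7 B cell markers summed to 0.511 and 0.411 CPM at 3 weeks and 141 and 8.03 CPM at 8 weeks in fibroblasts, and the 10 macrophage markers to 13.9, 20.9, 46.7 and 14.02 CPM. None of these markers was at 0 in all 4 libraries. In fibroblasts without any UMI of the macrophage, monocyte, neutrophil, T cell and B cell markers, an alternative chosen after seeing the data, 4 of 6 class II genes rose (median 2.16) and 13 of 18 class I genes (median 1.81). The part of free or engulfed immune RNA in the class II values was not tested beyond that. Without the block none of the 7 passed in edgeR (6 at an unadjusted p under 0.05, median 2.69), and without the B.g7 library of 3 weeks none of 8 (6, median 2.29). DESeq2 called 6 of 7 over all 4 libraries. Without the K/B.g7 library of 8 weeks 4 of 7 passed, with a median of 1.36.

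**Figure D3:**
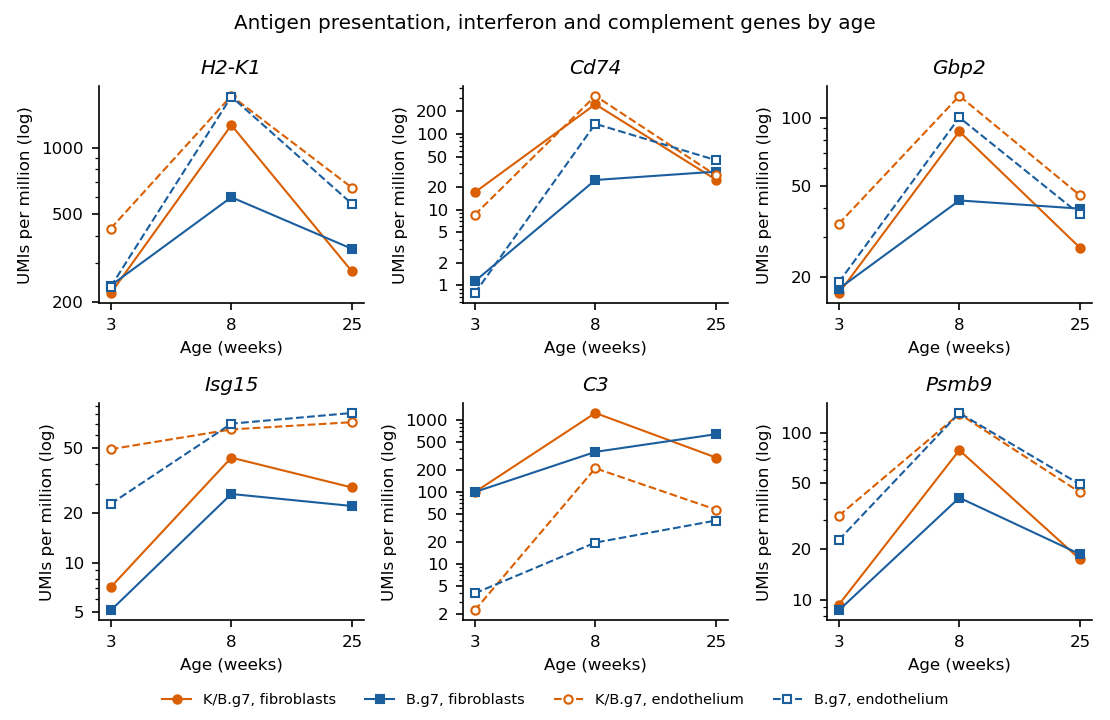
Levels of 6 genes in CPM (vertical axes, log scale) at 3, 8 and 25 weeks (horizontal axes), each point 1 library, solid lines for fibroblasts and dashed lines for endothelium without neuron-like cells. In all 6 panels the fibroblast level in K/B.g7 is highest at 8 weeks, as for H2-K1 with 1269.95 CPM against 219 CPM at 3 weeks and 276 CPM at 25 weeks.

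The 2 libraries of 25 weeks, which did not enter the comparison, had lower levels of most of these genes than those of 8 weeks. H2-K1 was at 276 and 349 CPM in K/B.g7 and B.g7, Gbp2 at 26.8 and 39.9 CPM and Psmb9 at 17.5 and 18.7 CPM. Lcn2 was at 2.55 and 5.77 CPM and Mmp3 at 21.5 and 22.2 CPM. C3 was higher in B.g7 at 25 than at 8 weeks, with 303 and 639 CPM. Cd74, at 24.8 and 31.7 CPM, was also higher in B.g7 at 25 than at 8 weeks. No test was made on the 25-week values.

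Of 18 complement genes 8 rose and none fell, with a median log2 change of 0.80 and ratios of 1.64 within K/B.g7 and 0.55 within B.g7. C3 (ENSMUSG00000024164, chr17:57203970-57228136, minus strand), the central component of the cascade, was at 100.002 CPM in K/B.g7 and 100.4 CPM in B.g7 at 3 weeks against 1259.8 and 363 CPM at 8 weeks. The 3-week libraries were level with each other and both 8-week libraries were higher, K/B.g7 most (log2 change 2.82 ± 0.39, adjusted p = 0.00833). C4b, of the classical pathway, went from 64.9 to 372 CPM in K/B.g7 and from 57.4 to 124 CPM in B.g7 (log2 change 1.88 ± 0.30, adjusted p = 0.0131), and Cfb, of the alternative pathway, from 1.36 to 26.2 CPM in K/B.g7 and from 0.513 to 4.82 CPM in B.g7 (log2 change 3.98 ± 0.32, adjusted p = 0.00144). C1s1, the protease that cleaves C4, rose from 41.9 to 212 CPM in K/B.g7 and from 39.2 to 126 CPM in B.g7 (log2 change 2.07 ± 0.20, adjusted p = 0.00245). Serping1, the inhibitor of the C1 proteases, was at 865 and 915 CPM at 3 weeks and 1629.8 and 1191 CPM at 8 weeks in K/B.g7 and B.g7 and did not pass (log2 change 0.71 ± 0.24, adjusted p = 0.116). Without the K/B.g7 library of 8 weeks 5 of 18 complement genes passed, with a median of 0.30, and without the B.g7 library of 3 weeks none of 19 did (edgeR, 10 at an unadjusted p under 0.05). DESeq2 called 7 over all 4 libraries.

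Of 23 inflammatory and acute-phase genes 11 rose and none fell (median 1.04), and without the block 3 of 23 rose. The median ratios were 1.31 within K/B.g7 and 0.47 within B.g7. Without the K/B.g7 library of 8 weeks 4 of 24 rose and 1 fell, and without the B.g7 library of 3 weeks 5 of 27 rose. Vcam1, an adhesion molecule for leukocytes, was at 156 CPM in K/B.g7 and 181 CPM in B.g7 at 3 weeks against 609 and 358 CPM at 8 weeks, with no overlap between the ages (log2 change 1.54 ± 0.25, adjusted p = 0.013). Icam1, another adhesion molecule, went from 85.01 to 243 CPM in K/B.g7 and from 95.04 to 182 CPM in B.g7 (log2 change 1.29 ± 0.19, adjusted p = 0.0108). Ptgs2, the inducible prostaglandin synthase COX-2, went from 91.3 to 221 CPM in K/B.g7 and from 80.6 to 171 CPM in B.g7 (log2 change 1.24 ± 0.18, adjusted p = 0.00897), and the cytokine gene Il33 from 95.6 to 186 CPM in K/B.g7 and from 55.4 to 131 CPM in B.g7 (log2 change 1.16 ± 0.19, adjusted p = 0.0144). Il6 rose less (log2 change 0.94 ± 0.22, adjusted p = 0.0427) and missed the threshold in 11 of 19 alternatives. Nos2, the inducible nitric oxide synthase, was barely detected at 3 weeks, at 0.227 and 0.103 CPM at 3 weeks and 19.2 and 2.34 CPM at 8 weeks in K/B.g7 and B.g7.

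Among chemokine genes 8 of 21 rose and none fell (median 0.89), and without the block 3 of 21 rose. The genotypes had medians of opposite sign. The median log2 ratio was 1.66 within K/B.g7 and -0.04 within B.g7, a difference that could not be tested with 1 library each. Cxcl9, an interferon-induced attractant of T cells, was at 0.227 CPM in K/B.g7 and 0 CPM in B.g7 at 3 weeks against 69.7 and 4.24 CPM at 8 weeks. Both 3-week libraries were near 0 (log2 change 8.24 ± 0.39, adjusted p = 0.000253). Cxcl1, a neutrophil attractant, rose from 659.6 to 1259 CPM in K/B.g7 and from 767 to 1329 CPM in B.g7, alike in the genotypes (log2 change 0.92 ± 0.22, adjusted p = 0.0457). It missed the threshold in 10 of 19 alternatives. Cxcl14 was at 35.5 and 37.97 CPM at 3 weeks and 746 and 76.5 CPM at 8 weeks in K/B.g7 and B.g7 and did not pass (log2 change 2.78 ± 0.71, adjusted p = 0.0571). Ccl5, which T cells make in quantity, rose from 0.568 to 68.4 CPM in K/B.g7 and from 0 to 6.72 CPM in B.g7, and its level in barcodes with Ptprc was 1743 and 4026 CPM at 8 weeks. Without the K/B.g7 library of 8 weeks the chemokine median was -0.37, with 7 genes that rose and 3 that fell, and without the B.g7 library of 3 weeks 5 of 21 rose.

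Clock genes changed in opposite directions. Of 17 tested 7 rose and 2 fell. Those that rose were Dbp, Tef, Hlf, Nr1d1, Nr1d2, Per3 and Bhlhe41, which are transcribed under the control of BMAL1, and those that fell were Arntl, the gene of BMAL1 itself, and Npas2. Dbp was at 97.3 CPM in K/B.g7 and 74.9 CPM in B.g7 at 3 weeks against 224 and 204 CPM at 8 weeks, without overlap (log2 change 1.38 ± 0.19, adjusted p = 0.0084). Nr1d1, the repressor REV-ERB alpha, went from 49.9 to 137 CPM in K/B.g7 and from 53.2 to 167 CPM in B.g7 (log2 change 1.62 ± 0.19, adjusted p = 0.00456). Arntl, which REV-ERB represses, was at 20.6 CPM in K/B.g7 and 24.2 CPM in B.g7 at 3 weeks against 9.65 and 10.2 CPM at 8 weeks, below the 3-week values in both genotypes (log2 change -1.11 ± 0.20, adjusted p = 0.0175). Npas2 went from 12.9 to 6.17 CPM in K/B.g7 and from 12.7 to 6.43 CPM in B.g7 (log2 change -0.97 ± 0.22, adjusted p = 0.0407). It missed the threshold in 9 of 18 alternatives. At 25 weeks Dbp was at 87.7 and 118 CPM and Arntl at 20.6 and 15.7 CPM in K/B.g7 and B.g7. Without the B.g7 library of 3 weeks 3 of 18 clock genes rose and 1 fell, and without the K/B.g7 library of 8 weeks 5 of 18 rose and none fell. The labels give no time of day, so age and the hour of dissection cannot be told apart for these genes.

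**Figure D4:**
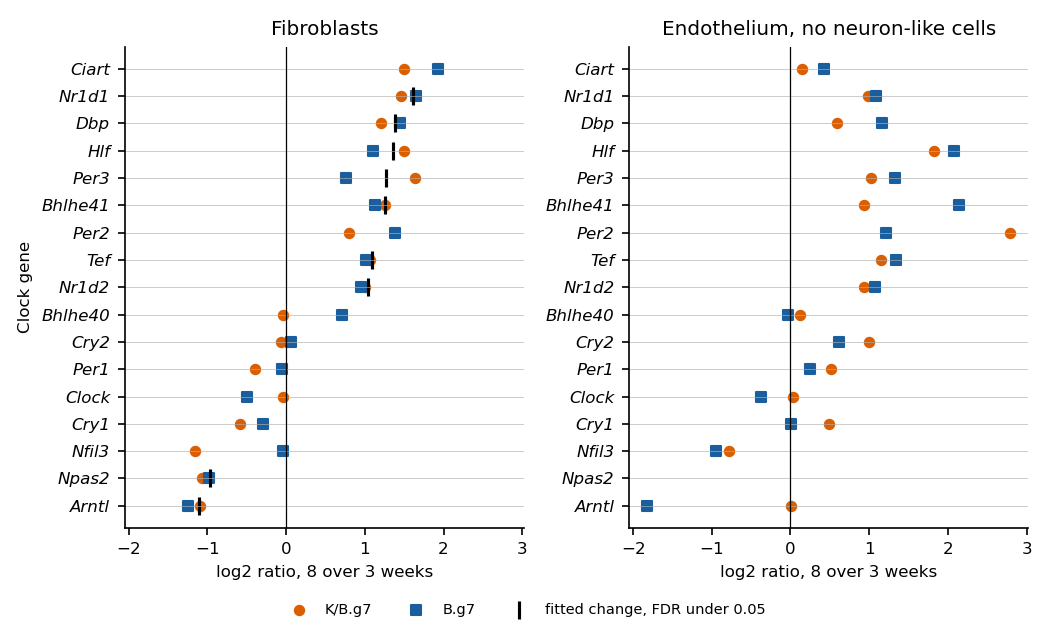
The log2 ratio of 8 over 3 weeks (horizontal axes) of clock genes (vertical axis) within K/B.g7 (circles) and B.g7 (squares) in fibroblasts and in endothelium without neuron-like cells, with a black tick at the fitted change where it passed. In fibroblasts Nr1d1 and Dbp lie to the right of 0 and Arntl and Npas2 to the left in both genotypes, and no clock gene passed in endothelium.

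Several other groups had at most 4 genes that passed in a direction. The share that rose exceeded the 4.88% over all genes in each of them except the heat shock and immediate early list. Of 30 heat shock and immediate early genes 1 rose, Hspa1b, which is near-identical to Hspa1a in its coding sequence (log2 change 1.10 ± 0.24, adjusted p = 0.0376), and none fell, with a median of 0.11. Hspa1b missed the threshold in 9 of 19 alternatives. Of 15 glucocorticoid-response genes 4 rose, among them the metallothionein genes Mt1, from 631 to 1569 CPM in K/B.g7 and from 507 to 1754 CPM in B.g7 (log2 change 1.61 ± 0.26, adjusted p = 0.0129), and Mt2 (log2 change 1.58 ± 0.19, adjusted p = 0.00477). Of these 15, 0 passed without the B.g7 library of 3 weeks (edgeR, 8 at an unadjusted p under 0.05, 4 called by DESeq2 over all 4 libraries), and 2 without that of 8 weeks. In the Wnt list 3 of 31 rose and 1 fell, but the balance turned when a B.g7 library was left out, to 0 that rose and 4 that fell of 35 without that of 3 weeks and 1 and 6 without that of 8 weeks. Rspo1, the Wnt agonist R-spondin 1, rose from 2.16 to 11.97 CPM in K/B.g7 and from 3.28 to 10.3 CPM in B.g7 (log2 change 2.13 ± 0.28, adjusted p = 0.00682). Of 30 valve transcription factor and BMP genes 2 rose (Bmp4, Snai2) and 2 fell (Twist2, Scx). Lipid handling (3 of 23 rose, 1 fell), glycolysis and hypoxia (2 of 19 rose) and retinoid and thyroid genes (1 of 16 rose, 1 fell) likewise had 1 to 3 genes that passed in a direction, against the 4.88% and 3.31% over all genes. Leaving out 1 library moved each of the last 4 lists, that of valve transcription factors included, to between 0 and 3 genes in a direction.

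The endothelium gate took 6.18% (5.57 to 6.84) of K/B.g7 barcodes and 4.61% (3.96 to 5.33) of B.g7 barcodes at 3 weeks and 5.699% (5.24 to 6.19) and 20.8% (19.8 to 21.9) at 8 weeks. In these sums, 9.85% of 11856 genes rose and 18.5% fell between 3 and 8 weeks, 1168 and 2189 genes or 28.3% in all, but the cells taken were not all endothelial. At 3 weeks the gate held 35 cells of K/B.g7 and 13 of B.g7 that expressed neuronal genes, against 0 and 2 at 8 weeks. They were very rich in RNA, with medians of 36568 and 45338 UMIs, and made up 45.5% and 38.5% of all endothelial UMIs at 3 weeks. All of them at 3 weeks had no UMI of Pecam1, Cdh5 or Emcn and entered through Egfl7 alone. The genes of largest fall over all gated cells included those of neuropeptides and neurofilaments, such as Cartpt, Npy and Nefm. Npy, neuropeptide Y, was at 2733 and 3115 CPM at 3 weeks and 4.06 and 1.52 CPM at 8 weeks in K/B.g7 and B.g7 (log2 change -10.15 ± 0.44, adjusted p = 3.14e-06).

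Endothelium was therefore also summed without them, a choice made after seeing the data. A cell was kept with at least 1 UMI of Pecam1, Cdh5 or Emcn, at least 0.05% of UMIs from the 4 endothelial genes and at most 1 UMI over a set of 5 neuronal genes. This left 316 cells of K/B.g7 and 160 of B.g7 at 3 weeks and 524 and 1194 at 8 weeks, in which all 11 endothelial markers were detected, with 1758350, 1273443, 2419553 and 5120929 UMIs. Of 10545 genes 31 (0.294%) rose and 11 (0.104%) fell, with 1601 at an unadjusted p under 0.05, and 41 of these 42 had also passed in the same direction over all gated cells. The values below are from these cells. No gene passed when the K/B.g7 library of 3 weeks was left out of the fit of 6 libraries (edgeR, 1340 genes at an unadjusted p under 0.05), 12 passed without the B.g7 library of 3 weeks, and all 42 kept their direction in both cases. Leaving out a library of 8 weeks raised the count, to 1312 without K/B.g7 and 283 without B.g7.

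**Figure D5:**
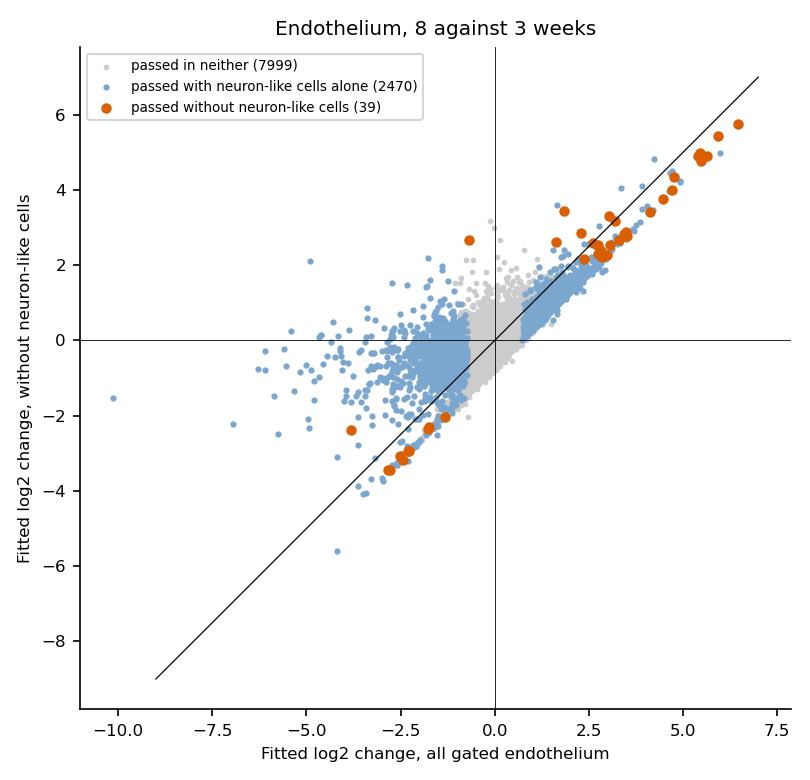
Fitted log2 change, 8 over 3 weeks, of 10508 genes over all gated endothelium (horizontal axis) and without neuron-like cells (vertical axis), each point 1 gene, with the line of equal values. The 2470 genes that passed with neuron-like cells alone spread along the horizontal axis and many lie near 0 on the vertical axis, while the 39 that passed without them lie closer to the line.

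Endothelial cells shared the rise of antigen presentation. Of 18 MHC class I genes 7 rose and none fell (median 1.69), and of 6 class II genes 5 rose and none fell (median 4.90), against a median of 0.0023 over all genes tested. Without the B.g7 library of 3 weeks 2 of 18 class I and 2 of 8 class II genes rose, and without the K/B.g7 library of 8 weeks 15 of 18 and 6 of 6. Leaving out the B.g7 library of 8 weeks gave 11 of 18 class I genes that rose. H2-K1 was at 431 CPM in K/B.g7 and 235 CPM in B.g7 at 3 weeks against 1723 and 1710.04 CPM at 8 weeks. The genotypes reached the same level at 8 weeks (log2 change 2.53 ± 0.34, adjusted p = 0.0484). B2m went from 332 to 1435 CPM in K/B.g7 and from 257 to 1255 CPM in B.g7 (log2 change 2.31 ± 0.26, adjusted p = 0.0384). H2-D1 was at 1006 and 674 CPM at 3 weeks and 1940.4 and 1997 CPM at 8 weeks in K/B.g7 and B.g7 and did not pass (log2 change 1.36 ± 0.30, adjusted p = 0.127). Psmb9 of the immunoproteasome rose from 31.8 to 130.2 CPM in K/B.g7 and from 22.8 to 132 CPM in B.g7 (log2 change 2.37 ± 0.29, adjusted p = 0.0437).

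The class II rise was steeper in endothelium than in fibroblasts on the scale of the fitted changes, a difference that was not tested. H2-Ab1 was at 5.12 CPM in K/B.g7 and 1.57 CPM in B.g7 at 3 weeks against 175 and 98.03 CPM at 8 weeks. Both 3-week libraries were at a few CPM and both 8-week libraries near or above 98 CPM (log2 change 5.42 ± 0.37, adjusted p = 0.0115). H2-Aa went from 3.98 to 114 CPM in K/B.g7 and from 2.36 to 66.8 CPM in B.g7 (log2 change 4.90 ± 0.34, adjusted p = 0.0115), and Cd74 from 8.53 to 317 CPM in K/B.g7 and from 0.785 to 136 CPM in B.g7 (log2 change 5.75 ± 0.46, adjusted p = 0.012). As a share of the level in barcodes with Ptprc, H2-Ab1 was at 0.149% and 0.0336% at 3 weeks and 4.71% and 3.35% at 8 weeks. Igkc was at 0% and 0%, then 1.03% and 0.297%, and Lyz2 at 0.0186% and 0.0278%, then 0.32% and 0.0684%. Of 6 immune genes set beside H2-Ab1, Igkc, Lyz2, Cd79a, C1qa and Tyrobp had lower shares at 8 weeks in both genotypes. The T cell gene Cd3e had higher ones, 5.26% and 5.69%. In endothelium without any immune marker UMI 6 of 6 class II genes rose, with a median of 4.45.

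Interferon-gamma targets rose in endothelium, 5 of 20 with none that fell (median 2.16), while none of 17 type I interferon genes passed (median 0.83, 9 at an unadjusted p under 0.05 in edgeR, 0 called by DESeq2). Whether the lists differ was not tested. With the K/B.g7 library of 8 weeks left out 7 of 18 type I genes rose and 13 of 20 interferon-gamma genes, and without the B.g7 library of 8 weeks 6 of 18 and 15 of 20. With the B.g7 library of 3 weeks left out 1 of 21 interferon-gamma genes rose and 0 of 19 type I genes (edgeR, 5 at an unadjusted p under 0.05). Cxcl9 had no UMI in either 3-week library and was at 55.8 and 109 CPM at 8 weeks, at least 93.01-fold higher against a floor of 3 UMIs over both. Cxcl10, of the same receptor, was at 13.1 CPM in K/B.g7 and 9.42 CPM in B.g7 at 3 weeks against 122 and 105 CPM at 8 weeks. It was higher at 8 weeks in both genotypes (log2 change 3.43 ± 0.29, adjusted p = 0.0167). Gbp2 went from 34.1 to 125 CPM in K/B.g7 and from 18.8 to 101 CPM in B.g7 (log2 change 2.22 ± 0.29, adjusted p = 0.0484), Igtp from 8.53 to 67.4 CPM in K/B.g7 and from 3.14 to 40.8 CPM in B.g7 (log2 change 3.32 ± 0.34, adjusted p = 0.0339) and Iigp1 from 30.1 to 206 CPM in K/B.g7 and from 18.8 to 113 CPM in B.g7 (log2 change 2.78 ± 0.26, adjusted p = 0.0267). Isg15 was at 48.9 and 22.8 CPM at 3 weeks and 64.5 and 69.9 CPM at 8 weeks in K/B.g7 and B.g7 and did not pass (log2 change 1.07 ± 0.37, adjusted p = 0.269).

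Of 12 complement genes 2 rose in endothelium, C1ra and C4b, and none fell. Of 10 leukocyte adhesion genes none passed (edgeR, 3 at an unadjusted p under 0.05, 1 called by DESeq2). Of 14 complement genes 0 passed without the B.g7 library of 3 weeks (edgeR, 7 at an unadjusted p under 0.05, 3 called by DESeq2 over all 4 libraries), and without that of 8 weeks 7 of 13 did, against 5 of 13 without the K/B.g7 library of 8 weeks. C4b went from 10.2 to 57.04 CPM in K/B.g7 and from 1.57 to 37.9 CPM in B.g7 (log2 change 3.16 ± 0.35, adjusted p = 0.0356), while C3 was at 2.27 and 3.93 CPM at 3 weeks and 215 and 19.9 CPM at 8 weeks in K/B.g7 and B.g7 and did not pass (log2 change 4.99 ± 0.89, adjusted p = 0.0826). Ptgs2 rose from 91.6 to 461 CPM in K/B.g7 and from 83.2 to 330.02 CPM in B.g7 (log2 change 2.27 ± 0.25, adjusted p = 0.0356), and Il33 from 5.12 to 46.7 CPM in K/B.g7 and from 5.497 to 27.1 CPM in B.g7 (log2 change 2.87 ± 0.36, adjusted p = 0.0484). Dsg2, a desmosomal cadherin and member of no list, rose from 10.8 to 44.2 CPM in K/B.g7 and from 0.785 to 79.9 CPM in B.g7 (log2 change 3.41 ± 0.34, adjusted p = 0.0333). Vcam1 was at 569 and 335 CPM at 3 weeks and 1185 and 1021 CPM at 8 weeks in K/B.g7 and B.g7 and did not pass (log2 change 1.44 ± 0.29, adjusted p = 0.106). Prg4, the lubricating proteoglycan lubricin, rose from 11.4 to 95.5 CPM in K/B.g7 and from 6.28 to 22.7 CPM in B.g7 (log2 change 2.67 ± 0.33, adjusted p = 0.0464), beside fibroblast markers that summed to 5263, 3432, 7034 and 4825 CPM in the endothelial sums at 3 weeks (K/B.g7, B.g7) and 8 weeks. All 12 fibroblast markers were detected, and their part in this value was not tested.

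Of 29 proliferation genes tested in endothelium 2 fell, Cdk1 and Stmn1, and none rose, with a list median of -2.09. Cdk1 was at 38.1 CPM in K/B.g7 and 37.7 CPM in B.g7 at 3 weeks against 3.72 and 3.91 CPM at 8 weeks, a like fall in both genotypes (log2 change -3.18 ± 0.33, adjusted p = 0.0339). Stmn1, a microtubule-destabilising protein of dividing cells, went from 297 to 70.3 CPM in K/B.g7 and from 278 to 37.5 CPM in B.g7 (log2 change -2.38 ± 0.28, adjusted p = 0.0394). The 7 markers of neuron-like cells, of which Th was at 0, still summed to 367 and 524 CPM at 3 weeks in K/B.g7 and B.g7. At 8 weeks they summed to 261 and 72.4 CPM, and the part of neuronal RNA in the Stmn1 values was not tested. Of 30 proliferation genes 22 fell without the K/B.g7 library of 8 weeks, without the B.g7 library of 8 weeks 7, and without that of 3 weeks none of 29 (edgeR, 11 at an unadjusted p under 0.05, 5 called by DESeq2 over all 4 libraries). Mki67 was at 29 and 80.9 CPM at 3 weeks and 19.4 and 1.17 CPM at 8 weeks in K/B.g7 and B.g7 and did not pass (log2 change -2.78 ± 1.12, adjusted p = 0.318). Cks2, a subunit of cyclin-dependent kinases outside the list, fell as well (log2 change -3.06 ± 0.41, adjusted p = 0.0484). Esm1, endocan, a gene of sprouting tip cells, had 19 and 32 UMIs at 3 weeks and none at 8 weeks, at least 42.3-fold lower.

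Eln fell in endothelium too, from 1669 to 178 CPM in K/B.g7 and from 747 to 103 CPM in B.g7 (log2 change -2.94 ± 0.28, adjusted p = 0.027), and so did Mfap2, a microfibril protein, from 149 to 31.8 CPM in K/B.g7 and from 101 to 24.6 CPM in B.g7 (log2 change -2.03 ± 0.26, adjusted p = 0.0484). The 10 markers of mural and smooth muscle cells summed to 1744 and 477 CPM at 3 weeks in these sums (K/B.g7, B.g7). At 8 weeks they summed to 535 and 385 CPM. None of the 9 tested passed, and their part in the fall of Eln and Mfap2 was not tested. None of 16 collagen genes passed (median -0.80, edgeR, 8 at an unadjusted p under 0.05, 3 called by DESeq2). Lymphatic-like cells made up 14.6% and 26.9% of these cells at 3 weeks and 21.6% and 2.85% at 8 weeks in K/B.g7 and B.g7, and the 7 lymphatic markers, all detected, summed to 4496, 9197, 8374 and 1616 CPM. Without lymphatic-like cells 342 genes passed. Of the 42 genes named above as passing, 39 were tested without these cells, and all 39 passed in the same direction. The part of lymphatic-like cells in the endothelial values was not tested beyond that. Clock genes did not pass in endothelium (median 0.96, edgeR, 9 at an unadjusted p under 0.05, 1 called by DESeq2). Of 16 tested, 12 were higher and 1 was lower at 8 weeks in both genotypes. Over all 10545 genes 62.4% had the same sign, up or down, in both genotypes. Nr1d1 was at 68.8 and 79.3 CPM at 3 weeks and 136 and 169 CPM at 8 weeks in K/B.g7 and B.g7 (log2 change 1.14 ± 0.24, adjusted p = 0.119).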

How the data were processed

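The deposited values are raw counts of UMIs per gene and barcode in 10x Genomics 3′ libraries, not normalized, over 31053 genes. Per the submitters' processing notes the authors used Cell Ranger 3.1.0 and mm10; the annotation version and cell-calling setting were not given in the sources used here. Gene symbols are those the authors deposited, and 30934 gene IDs were found in the mm10 annotation. The 4 libraries held 15196750 to 45002210 UMIs. Counting error is small for abundant genes, and few cells limit the endothelium.

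Counts of the cells of a class were summed per library and tested with edgeR 4.0.16 (R 4.3.3) by quasi-likelihood with genotype and age in the model, TMM factors, filterByExpr and Benjamini-Hochberg adjustment over all genes tested (threshold 0.05). Standard errors are of the log2 change. Ratios within a genotype used 0.5 UMI as pseudocount and have no test. Predicted doublets were kept, since the automatic Scrublet threshold marked 1 to 32 barcodes a library, and were left out in an alternative (0.8% per 1000 barcodes). On simulated counts the test recovered 46% of 2-fold and 88% of 4-fold changes in fibroblasts, and 15% and 76% in endothelium without neuron-like cells. Of the calls 6.29% were false in fibroblasts, above the 5% aimed at, and 3.19% in endothelium without neuron-like cells. The simulated age changes were the same in both genotypes, unlike many in the data, so these rates need not hold for these libraries.

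Named genes were, per class and direction, the 12 of largest change that passed with the same sign in both genotypes and a mean of at least 20 CPM, without mitochondrial, ribosomal, hemoglobin, immunoglobulin, T cell receptor, sex-linked, unnamed (Gm, Rik) and class-defining genes, and up to 4 members of smallest p of each list. Other members named beside them, Esm1, Gbp4, Cks2, Pcna and the immune genes Igkc, Lyz2 and Cd3e among them, were chosen after their values were seen. The comparison, its lists and its members were chosen with earlier results of these data known. Alternatives were other size factors, DESeq2, other filters, no block, all 6 libraries with each left out, thinned counts, other gates and other cells. The TTCNNNGAA and ISRE core motifs were added after seeing the data. Some results are not reported here.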

Additional observations from a re-analysis of the deposited data

Results flagged for a closer look

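The signs of the age difference were opposite in the genotypes for the items below, and no difference was tested, since each genotype has 1 library per age. Lists are given where their medians lay over 0.5 apart and at least 5 members were tested. In fibroblasts the chemokine list had a median log2 ratio of 1.66 within K/B.g7 and -0.043 within B.g7. Of the fibroblast genes that passed, 3 had opposite signs. Crabp2, a retinoic acid binding protein, was at 3.26 (K/B.g7) and -0.77 (B.g7), Tyrobp, an adaptor of myeloid and natural killer cells, at 3.68 and -0.16, and Serpina3c, a serine protease inhibitor, at 2.34 and -0.12.

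In endothelium without neuron-like cells 6 lists had medians of opposite sign. The collagen list was at 0.013 for K/B.g7 and -1.66 for B.g7, other matrix proteins at 0.25 and -0.43, matrix proteases and inhibitors at 0.017 and -0.76, and proteoglycan and hyaluronan genes at 0.28 and -0.26. Imprinted growth genes were at -0.44 and 0.24. The list of valvular and endocardial endothelium was at -0.12 (K/B.g7) and 0.59 (B.g7). The fibroblast markers in these sums went from 5263 to 7034 CPM in K/B.g7 and from 3432 to 4825 CPM in B.g7, and their part in the matrix lists was not tested.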

How the results depend on the processing

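Of the 1095 fibroblast genes, all that were tested kept their direction in each alternative, except 3 of them when the K/B.g7 library of 8 weeks was left out. The alternatives share libraries with the comparison, so a kept direction is no independent support, here or in endothelium. The count of fibroblast genes past the threshold moved to 254 with no filter on low counts, 649 with a mean of at least 20 CPM, 627 with all 6 libraries, 1967 in cells with Xist and no Ddx3y, 639 with the stricter gate, 616 with each cell thinned to 1000 UMIs and 677 in cells without immune marker UMIs. It ranged from 0 (without the K/B.g7 library of 3 weeks) to 1060 when 1 library was left out. All gated endothelium (3357 genes) moved to 1550 with DESeq2, 1712 with no filter, 2095 with a mean of at least 20 CPM, 939 with 500 genes and 5% mitochondrial UMIs, 204 with thinned cells and 42 without neuron-like cells, and to 974 to 3786 with 1 library left out. Endothelium without neuron-like cells (42 genes) moved to 144 with RLE size factors, 106 with DESeq2, 14 with the legacy quasi-likelihood method, 5 with no filter, 23 with a mean of at least 20 CPM, 167 with all 6 libraries, 6 with sums thinned to equal depth, 204 with thinned cells, 342 without lymphatic-like cells and 153 without immune marker UMIs, and ranged from 0 to 1312 with 1 library left out. Those 42 kept their direction in every alternative in which they were tested. The causes were not tested. Among values of single genes 2160 alternatives kept direction and side of the threshold, 455 lost it, 39 gained it and 1 reversed: Cxcl10 in fibroblasts, which ranged from -0.72 without the K/B.g7 library of 8 weeks to 1.96 without the B.g7 library of 8 weeks.

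Without the block the counts were 450 genes in fibroblasts, 3579 in all gated endothelium and 35 without neuron-like cells. The libraries of a genotype share that genotype and no stated animal, and the correlation of their deviations from the age means was 0.0215, -0.103 and -0.102 in these 3 sums.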
